A study of Mus musculus with 5 samples.

Results

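The chemokine genes Ccl3, Ccl4, Ccl5, Ccl9 and Xcl1 were chosen by name and are 5 of the 13911 genes in the table of all time points. Activated CD8+ T cells can release the proteins they encode. The cells were OT-I CD8+ T cells (strain C57BL/6-Tg(TcraTcrb)1100Mjb/J), taken from spleen and lymph nodes, whose transgenic T cell receptor recognises the ovalbumin peptide SIINFEKL. They were enriched by flow sorting at 0 h, or after 24 h or 72 h of culture with dendritic cells (DCs) pulsed with that peptide. Some cultures also received myeloid-derived suppressor cells, or MDSCs, which are immature myeloid cells that can restrain T cells. Every cultured group therefore had peptide-pulsed DCs, and no group was cultured without them. The source of the DCs and MDSCs and the number of mice are not given in the labels. Single-cell RNA was measured on the 10x Genomics droplet platform in 1 library per group, so no difference between groups has a replicate check and no p-value is given.

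Chemokines are small secreted proteins that attract cells bearing the matching receptor. Ccl3, Ccl4 and Ccl5 encode related inflammatory chemokines that draw effector T cells and several myeloid cells, and Ccl3 and Ccl5 bind the receptor Ccr1. Ccl9 encodes another Ccr1 ligand, known mostly from myeloid cells. Xcl1 encodes lymphotactin, whose receptor Xcr1 marks the DCs that cross-present antigen to CD8+ T cells. In T cells, Ccl3, Ccl4 and Xcl1 are known as rapid products of T cell receptor signalling, and Ccl5 as a product of effector and memory cells.

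The libraries held 2952 cells at 0 h, 1562 at 24 h with DCs, 2247 at 24 h with DCs and MDSCs, 1926 at 72 h with DCs and 4942 at 72 h with DCs and MDSCs. The deposited values are depth-adjusted whole numbers on a natural log scale, called adjusted counts here, and they summed to 13061 to 15988 per cell, so sequencing depth is unknown. Levels are adjusted counts per 1000000 of a library (CPM), and a cell holds a gene when its value is above 0. Any 2 libraries shared 7 to 18 cell barcodes. Cd8a and Cd8b1, which encode the CD8 chains, were above 0 in 93.8% or more of the cells of each library, and Cd4 in 0.260% or less. The summed level of the other cells' markers was 0.10 to 4.23 CPM for 5 granulocyte genes, 3.50 to 6.37 for 6 monocyte and macrophage genes, 2.81 to 17.8 for 4 NK cell genes and 4.86 to 27.6 for 3 B cell genes. The 6 DC genes summed to 0.29 to 84.4 CPM, of which Batf3 made up 0 to 83.3. The 0 h library stood apart: for 58 of its genes above 50 CPM the variance across cells was under 0.5 times the mean, and low values were spread differently. For Ccl4, 71.9% of the holders at 0 h had the value 1, against 0% of the 13 Ccl3 holders and 2.13% of the 47 Xcl1 holders. Shares of cells are therefore given at 0 h but low ones are not compared with the other libraries. No cell type that lacks these genes was sorted, so the share of cells that free RNA alone would give is unknown.

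Ccl5, Ccl9, Ccl3 and Ccl4 lie within 138906 bases of chromosome 11 (GENCODE M21, assembly GRCm38), and Xcl1 lies on chromosome 1. Ccl5 (ENSMUSG00000035042.2, chr11:83525778-83530518), Ccl9 (ENSMUSG00000019122.8, chr11:83572919-83578636) and Ccl3 (ENSMUSG00000000982.5, chr11:83647844-83649355) are on the minus strand and Ccl4 (ENSMUSG00000018930.3, chr11:83662584-83664683) is on the plus strand. Ccl3 and Ccl4 thus point away from each other across 13228 bases with no other annotated gene between them. Xcl1 (ENSMUSG00000026573.7, chr1:164931644-164935527) is on the minus strand. All are protein coding, with 3 exons in the principal transcript, except Ccl9 with 4. RefSeq promoter entries (GRCm38.p6) were matched for 3 of the 5 genes, Ccl3, Ccl9 and Xcl1. The 250 bases before the starts in these entries are shown because these genes moved together between 0 h and 24 h. They are chr11:83649379-83649628, chr11:83578637-83578886 and chr1:164935523-164935772, all read on the minus strand. For Ccl3 and Xcl1 the RefSeq starts differ by some bases from the GENCODE coordinates above. Capitals mark GGAAA on either strand, the core that NFAT factors bind. They also mark TGANTCA on either strand, a loose form of the AP-1 type site in which N is any base.
Ccl3: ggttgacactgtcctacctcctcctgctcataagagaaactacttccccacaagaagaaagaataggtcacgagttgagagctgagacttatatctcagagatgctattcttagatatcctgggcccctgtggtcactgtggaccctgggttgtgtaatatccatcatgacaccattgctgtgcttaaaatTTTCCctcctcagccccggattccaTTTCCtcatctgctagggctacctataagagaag
Ccl9: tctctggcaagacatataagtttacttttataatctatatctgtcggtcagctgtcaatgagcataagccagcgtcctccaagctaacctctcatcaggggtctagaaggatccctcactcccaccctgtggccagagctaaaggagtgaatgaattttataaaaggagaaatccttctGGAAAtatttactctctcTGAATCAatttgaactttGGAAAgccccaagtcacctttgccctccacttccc
Xcl1: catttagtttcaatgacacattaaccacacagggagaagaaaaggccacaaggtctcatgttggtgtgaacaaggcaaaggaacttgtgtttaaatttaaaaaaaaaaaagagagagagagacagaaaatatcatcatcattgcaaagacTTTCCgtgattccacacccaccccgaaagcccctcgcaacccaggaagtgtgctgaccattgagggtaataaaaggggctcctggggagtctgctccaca
GGAAA was found at 2 places in the Ccl3 sequence, 2 in that of Ccl9 and 1 in that of Xcl1, without overlap with the other motif. It is common, occurring in 55.6% of the 32851 windows of this length in the table. TGANTCA was found only in Ccl9 among these 3, as TGAATCA at positions -53 to -47, and in this loose form occurs in 6.75% of all windows. These matches describe letters and were not tested against binding.

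Ccl3, Ccl4, Xcl1 and Ccl9 were high at 24 h, with or without MDSCs, and low at 0 h and 72 h, whereas Ccl5 was highest at 0 h. The level of Ccl3 was 1.55 CPM at 0 h, 339 at 24 h with DCs, 404 at 24 h with DCs and MDSCs, 0.24 at 72 h with DCs and 0.99 at 72 h with DCs and MDSCs. The 24 h libraries were thus apart from the other three by over 2 orders of magnitude on the log scale plotted for each library. Ccl4 was at 11.1 CPM at 0 h. It reached 1148 at 24 h without MDSCs and 1057 with them, and was at 0.99 and 3.97 at 72 h. Xcl1 was at 7.23 CPM at 0 h, 471 and 315 at 24 h, and 2.57 and 1.61 at 72 h. Both genes were likewise high only in the 24 h libraries. Ccl9 was lower throughout its course, at 0.48 CPM at 0 h, 22.8 and 17.5 at 24 h, and 0.03 and 0.08 at 72 h, where the 72 h values rest on 1 and 6 adjusted counts. Ccl5 ran the other way from 0 h to 24 h, with 755 CPM at 0 h, 66.2 and 51.3 at 24 h, 67.5 at 72 h with DCs and 11.9 at 72 h with DCs and MDSCs.

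**Figure D1:**
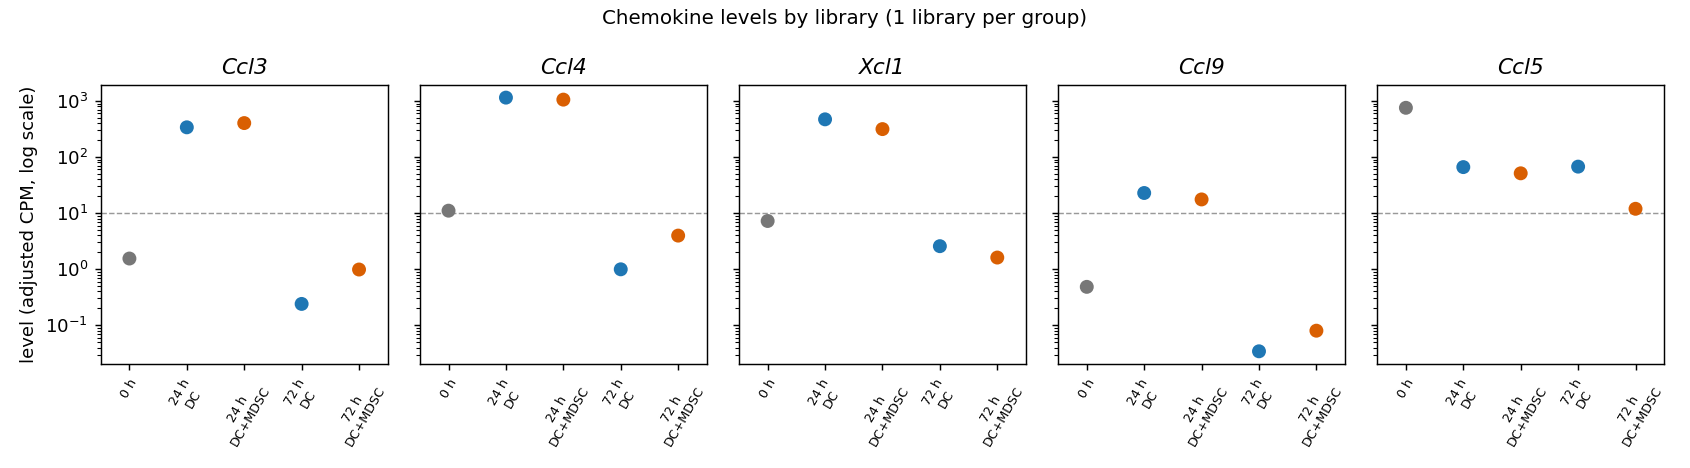
Level of each chemokine gene in the 5 libraries, in CPM on a log axis, 1 point per library (gray 0 h, blue DCs, orange DCs and MDSCs), with the 10 CPM minimum as a dashed line. Ccl3, Ccl4, Xcl1 and Ccl9 are highest in the 24 h libraries, and Ccl5 is highest at 0 h and lowest at 72 h with MDSCs.

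From 0 h to 24 h with DCs, 4 of the 5 genes rose and 1 fell by the rule used for all genes, a ratio of 2 or more in either direction with 10 CPM or more in either library. By that rule 40.9% of the 7006 genes tested were higher at 24 h and 10.6% were lower, so a rise of 2-fold was common. The sizes were not: Ccl3 rose 219-fold, Ccl4 104-fold, Xcl1 65.1-fold and Ccl9 47.2-fold, against a median log2 ratio of 0.74 over all genes tested. Ccl5 fell 11.4-fold, a log2 ratio of -3.51. Its change depended on how cells were averaged, since the mean natural log value gave -1.32. The share of cells holding Ccl5 was 23.1% at 0 h and 22.7% at 24 h. The mean in the cells that held it was 45.7 adjusted counts at 0 h and 4.53 at 24 h, but the median was 2 and 1. The mean thus rested on a minority of cells. Cells with 10 or more adjusted counts of Ccl5 made up 6.74% at 0 h and 1.86% at 24 h. Of the holders, 3.08% had the value 1 at 0 h and 61.7% at 24 h, so the share at 0 h carries the limit stated above for that library.

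From 24 h to 72 h with DCs, 4 of the 5 fell and none rose. Among 7336 genes tested, 20.8% fell and 15.5% rose. Ccl3 fell by 10.46, Ccl4 by 10.17 and Xcl1 by 7.51 on the log2 scale, where the median of all genes tested was -0.23. No ratio is given for Ccl9, which had a single adjusted count at 72 h. Ccl5 did not pass the rule, at 66.2 CPM and 67.5 CPM, although a single cell at 72 h held 384 of the 1967 adjusted counts. Leaving out cells with any of 17 myeloid markers moved its log2 ratio from 0.03 to 0.92, still short of 2-fold. With MDSCs, all 5 genes fell from 24 h to 72 h, where 24.7% of 7125 genes fell and 10.7% rose. Ccl3 fell by 8.68, Ccl4 by 8.06, Xcl1 by 7.61, Ccl9 by 7.78 and Ccl5 by 2.10 on the log2 scale.

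**Figure D2:**
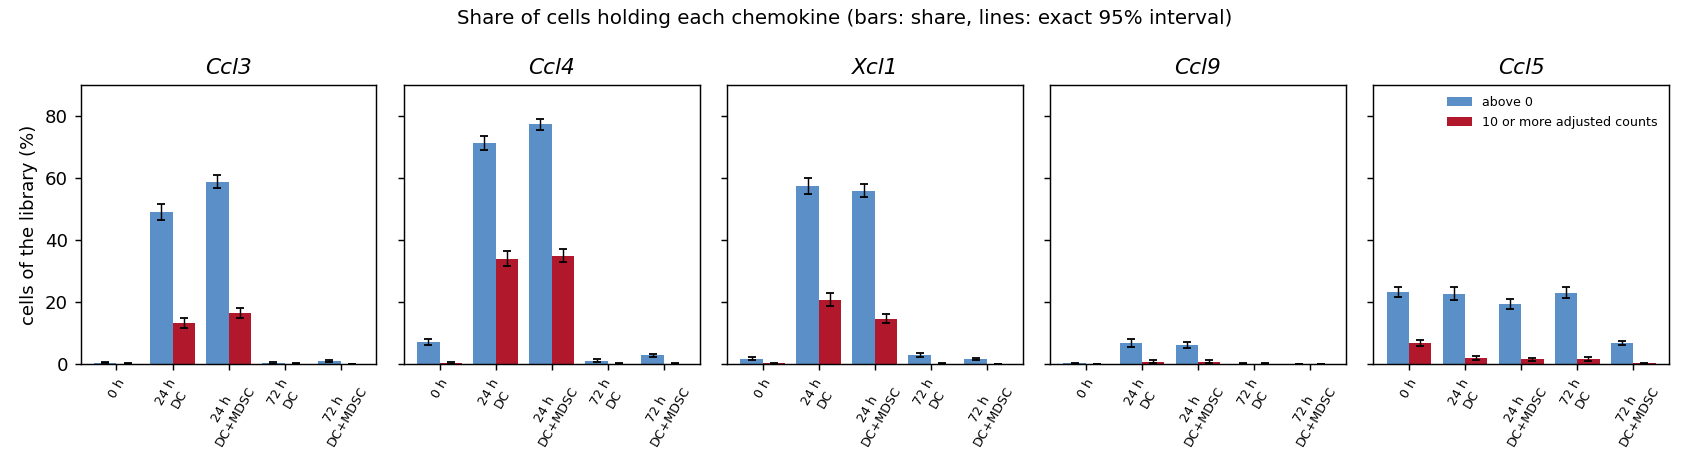
Share of the cells of each library that held each chemokine gene (blue, above 0) or had 10 or more adjusted counts of it (red), in percent of cells, with exact 95% intervals that cover counting error only. At 24 h between 49.0% and 77.4% of cells held Ccl3, Ccl4 or Xcl1, whereas Ccl5 was held by 19.4% to 23.1% of cells in 4 libraries and by 6.68% at 72 h with MDSCs.

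At 24 h, none of the 5 genes passed 2-fold between cultures with and without MDSCs, a comparison in which 0.535% of 6726 genes were higher with MDSCs and 0.297% lower. Ccl3 was above 0 in 49.0% of cells with DCs (exact 95% interval 46.5 to 51.5) and in 58.8% with MDSCs (56.7 to 60.8). Its mean per holder was 10.8 and 10.5 adjusted counts, so the share of cells was higher with MDSCs and the amount per holder was not. Ccl4 was above 0 in 71.3% (68.9 to 73.5) and 77.4% (75.6 to 79.1) of cells, with a mean per holder of 25.1 and 20.97. Its log2 ratio was -0.12, and 0.16 from the mean natural log value, so its direction is not fixed. Xcl1 showed the reverse of Ccl3: the shares were 57.4% (54.9 to 59.9) and 55.9% (53.8 to 57.9), while the mean per holder was 12.7 without and 8.66 with MDSCs. Cells with 10 or more adjusted counts of Xcl1 made up 20.7% and 14.6%. The log2 ratio of Xcl1 was -0.58, or 1.49-fold lower with MDSCs. Ccl9 was held by 6.72% and 6.14% of cells. The ratio of Ccl5 was -0.37 on the log2 scale, and 0.38 without cells that held any of the 17 myeloid markers, so its direction is not fixed either. That step left out 25.8% of the cells with DCs and 42.9% with MDSCs. Batf3, 1 of these markers, was held by 16.2% and 30.75% of all cells. Leaving out only cells with S100a8, S100a9 or Lyz2 gave a Ccl5 ratio of -0.31. The deposited table of 24 h alone, adjusted separately, gave other shares for the same cells (52.3% and 64.7% for Ccl3, 76.8% and 85.5% for Ccl4, 62.0% and 63.0% for Xcl1) with the MDSC library higher in each, so the direction of the difference in the Xcl1 share depends on the table.

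At 72 h only Ccl5 reached 10 CPM in either culture, and it was 5.65-fold lower with MDSCs, at 67.5 and 11.9 CPM. In that comparison 5.52% of 6697 genes were lower with MDSCs and 2.08% were higher. The share of cells that held Ccl5 was 23.0% (21.1 to 24.9) with DCs and 6.68% (6.00 to 7.41) with MDSCs, and 28 and 11 cells had 10 or more adjusted counts. Both the share and the mean per holder, 4.44 against 2.72 adjusted counts, were lower with MDSCs. The median per holder was 1 in both cultures, and a single cell with DCs held 384 of the 1967 adjusted counts. Cells with S100a8, S100a9 or Lyz2, defining transcripts of granulocytes and macrophages, numbered 169 at 24 h and 78 at 72 h with MDSCs, against 0 and 1 without. In the 169 cells Ccl3 was at 297 CPM and Ccl4 at 856, below the 412 and 1073 CPM of the other cells of that library. The counts of changed chemokine genes were the same without all such cells in each comparison.

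Most cells that held Ccl3 at 24 h also held Ccl4. Both genes were above 0 in 44.2% of cells with DCs and in 52.1% with MDSCs, where the product of the separate shares gives 34.9% and 45.5%. Of the Ccl3 holders, 90.3% and 88.6% also held Ccl4, and of the Ccl4 holders 62.1% and 67.4% held Ccl3. The overlap was tighter in cells with much of either: of the 206 cells with 10 or more adjusted counts of Ccl3 in the culture with DCs, 200 had 10 or more of Ccl4, or 97.1% (93.8 to 98.9), against 24.3% of the remaining cells. With MDSCs it was 336 of 369, or 91.1% (87.7 to 93.8), against 24.0%. In reverse, 37.7% and 42.7% of the cells high in Ccl4 were high in Ccl3. Cells high in Ccl3 were thus nearly all among the cells high in Ccl4. Cells high in Ccl4 numbered 530 with DCs and 786 with MDSCs, more than the 206 and 369 high in Ccl3. The reverse share therefore had to be lower under this common limit, and the asymmetry is not a result.

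**Figure D3:**
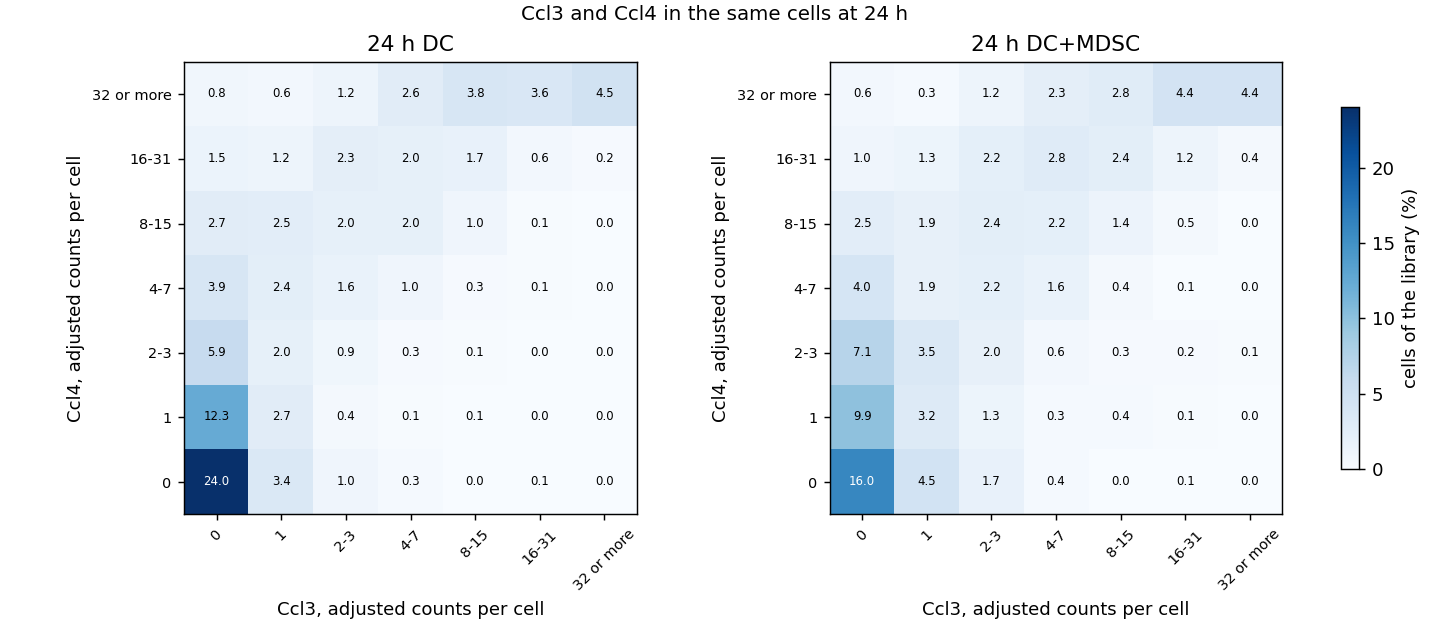
Percent of the cells of each 24 h library by adjusted counts of Ccl3 (horizontal axis) and Ccl4 (vertical axis) in the same cell, in bins that widen by doubling. With DCs 24.0% of cells held neither gene, with MDSCs 15.98%, and cells with much Ccl3 lie in the top rows, where Ccl4 is high.

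The Pearson correlation of the natural log values of Ccl3 and Ccl4 was 0.78 over the 1562 cells with DCs and 0.74 over the 2247 with MDSCs. These cells share a library, and correlations are given as descriptions. Within 3 sets of cells by the number of genes found, the coefficient was 0.75 to 0.79 with DCs and 0.73 to 0.75 with MDSCs. Ccl3 with Xcl1 reached 0.48 and 0.43, and Ccl4 with Xcl1 0.48 and 0.35. Ccl9 correlated at 0.12 to 0.26 with these 3 genes. Ccl5 was at 0.03 to 0.10 with Ccl3, Ccl4 and Xcl1, but at 0.20 and 0.31 with Ccl9. At 24 h without and with MDSCs, 77.1% and 77.5% of the Ccl9 holders held Ccl3, and 40.0% and 49.3% held Ccl5, a gene that 22.7% and 19.4% of all cells held.

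**Figure D4:**
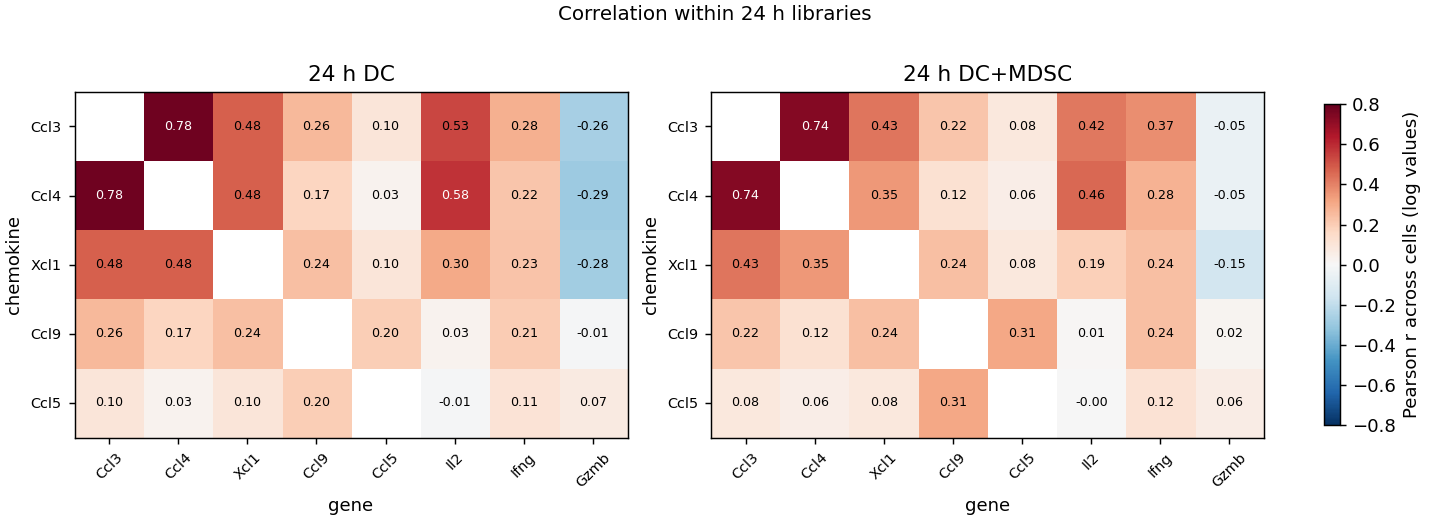
Pearson correlation across the cells of each 24 h library between the 5 chemokine genes (rows) and the same genes, Il2, Ifng and Gzmb (columns), on natural log values. Ccl3, Ccl4 and Xcl1 correlate with each other and with Il2, and Ccl5 stays near 0 with all shown but Ccl9 and, weakly, Ifng.

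Cells at 24 h held all 3 of Ccl3, Ccl4 and Xcl1, or none of them, more often than separate shares give. All 3 were above 0 in 34.2% of the cells with DCs (31.9 to 36.7), where the product of the shares gives 20.04%, and in 36.0% with MDSCs (34.1 to 38.1), where it gives 25.4%. None of the 3 was above 0 in 16.3% (14.5 to 18.2) and 10.7% (9.48 to 12.1), against 6.24% and 4.12%. Cells holding Ccl3 and Xcl1 without Ccl4 were 2.05% and 3.52%, below the 8.09% and 7.44% given by the product. The other pairs were below it too. Those with Ccl3 and Ccl4 alone were 9.99% and 16.07%, against 14.86% and 20.07%. Those with Ccl4 and Xcl1 alone were 13.44% and 11.04%, against 20.88% and 17.8%. The median number of genes found was 3649 in cells with all 3 and 3354 in cells with none with DCs, and 3722 and 3327 with MDSCs. The part of that difference in the pattern was not tested beyond the 3 sets by genes found, in which the ratio of observed to expected Ccl3 and Ccl4 holders with DCs was 1.25, against 1.27 over all cells.

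Il2, the T cell growth factor, followed the number of these chemokines in a cell. With DCs its level was 22.1 CPM in the 255 cells with none, 151 with 1, 579 with 2 and 1527 in the 535 cells with all 3. With MDSCs the levels were 48.5, 96.1, 365 and 597 CPM. Il2 thus stood higher at each step in both cultures, but in cells with all 3 it was lower with MDSCs, as it was over the whole library (715 and 356 CPM). Ifng, the macrophage-activating interferon, went from 25.4 to 238 CPM with DCs and from 30.3 to 500.2 with MDSCs between cells with none and cells with all 3. In cells with all 3, Ifng was therefore higher in the culture with MDSCs, the reverse of Il2. Of the 10 effector cytokine genes tested between these cells with DCs, 7 were higher in cells with all 3 (Il2, Ifng, Tnf, Il3, Tnfsf9, Tnfsf11 and Tnfsf14) and Ltb was lower. Over all 6916 genes, 3.44% were higher and 2.78% lower. With MDSCs the same 7 of 9 tested were higher and Ltb lower, beside 2.39% higher and 0.973% lower of 6780 genes. The cells were sorted by chemokine values of the same cells, so these are descriptions.

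Regulators downstream of the T cell receptor split between the 2 kinds of cells. In both cultures 8 of 23 tested were 2-fold or more higher in cells with all 3 chemokines. They were Nfatc1, Nfkb2, Rel, Egr1, Egr2, Nr4a1, Nr4a2 and Nr4a3, whereas Eomes and Klf2 were lower. All genes tested were higher in 3.44% and lower in 2.78% of cases with DCs, and in 2.39% and 0.973% with MDSCs. Nr4a1, an early gene of receptor signalling, was at 6.16 CPM in cells with none and 56.2 in cells with all 3 with DCs, and at 14.6 and 60.3 with MDSCs. Rel, an NF-kB subunit, was at 11.6 and 82.2 CPM with DCs and at 15.4 and 62.2 with MDSCs. Klf2, a factor of resting T cells, was at 62.4 and 5.36 CPM with DCs and at 33.1 and 6.61 with MDSCs. The list's median log2 ratio was 0.43 with DCs and 0.45 with MDSCs, beside 0.12 over all genes tested in each.

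Gzmb ran the other way. Gzmb, encoding the cytotoxic protease granzyme B, was at 1692 CPM in cells with none of the 3 and 607 in cells with all 3 with DCs, and at 2414 and 1673 with MDSCs. The step was 2-fold or more only without MDSCs. Its correlation with Ccl4 was -0.29 with DCs and -0.05 with MDSCs. Of the cells high in Ccl4 (10 or more adjusted counts), 24.2% were high in Gzmb with DCs, against 45.5% of the remaining cells, and with MDSCs these shares were 60.6% and 63.5%. The difference between the cultures was not tested. Among 7 cytotoxic granule genes tested, Gzma, Srgn and Nkg7 were higher and Gzmb and Ctsw lower in cells with all 3 with DCs, while with MDSCs none was higher and Gzma and Ctsw were lower. Gzma turned direction between the cultures, resting on 2.80% to 6.22% of the cells compared. Of 16 memory-like genes tested, 6 were lower in both cultures, among them Ly6c2, Eomes, Ctsw, Itgb7 and S100a6, and Cd44, an activation marker, was higher. Over all genes tested, 3.44% were higher and 2.78% lower with DCs, and 2.39% and 0.973% with MDSCs.

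**Figure D5:**
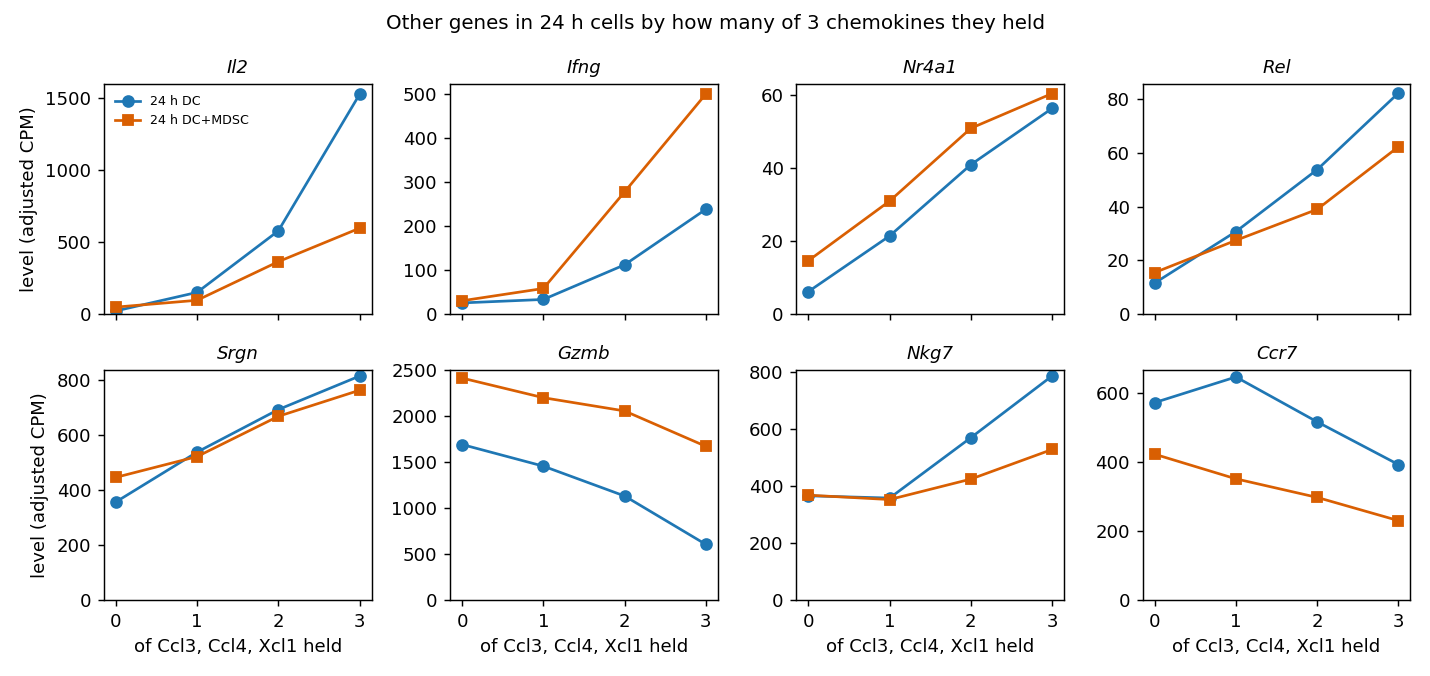
Level of 8 genes (CPM) in the 24 h cells that held 0, 1, 2 or 3 of Ccl3, Ccl4 and Xcl1 (horizontal axis), with DCs (blue circles) and with DCs and MDSCs (orange squares). Il2, Ifng, Nr4a1, Rel and Srgn are higher with each further chemokine, Gzmb is lower, and Il2 with DCs reaches 1527 CPM in cells with all 3.

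The genes most alike to each chemokine gene were ranked outside the 5 chemokine genes, whose correlations with each other are given above. Over all other genes above 0 in 5% or more of the 24 h cells (8435 genes), Il2 was the one most alike to Ccl3 and to Ccl4, with mean correlations over both libraries of 0.48 and 0.52. Next for Ccl3 came Plk3 (0.36), Rgs1 (0.34), Ifng (0.33) and Srgn (0.33). For Ccl4 they were Nfkbid (0.45), Srgn (0.41), Bhlhe40 (0.39) and Plk3 (0.39). Nfkbid encodes a nuclear regulator of NF-kB, and Srgn the proteoglycan of secretory granules. For Xcl1, Nkg7 (0.35), a granule protein gene, came ahead of Csrp1 (0.31), Srgn (0.30), Sh2d2a (0.28) and Eea1 (0.28). Of these only Srgn was also named for Ccl3 and Ccl4. Ccl9 had Mt2 (0.24), Ifng (0.22), Tnfrsf9 (0.17), Klrd1 (0.17) and Tubb6 (0.16). The gene with the lowest coefficient, looked up after the values were seen, was Igtp, an interferon-induced GTPase, for Ccl3 (-0.31), Ccl4 (-0.28), Xcl1 (-0.35) and Ccl9 (-0.14).

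Ccl5 had other genes alike to it. Of the Ccl5 holders at 24 h, 71.0% and 81.4% held Ccl4, which is 0.996 and 1.05 times what the separate shares give. At 0 h its correlation with Ccl4 was 0.47 over all cells, and 0.04, 0.11 and 0.59 in those with the fewest, middle and most genes found. There 98 cells held both Ccl4 and Ccl5, where the product of the shares gives 48.6. Outside the 5 chemokine genes, those most alike to Ccl5 at 24 h were S100a6 (0.36), Klrd1 (0.29), Tmsb4x (0.26), Lgals1 (0.21) and Anxa2 (0.20). None of them was named for Ccl3, Ccl4 or Xcl1. At 0 h they were S100a6 (0.64), Ly6c2 (0.49), AW112010 (0.42), Ahnak (0.42) and Ctla2a (0.39). S100a6, Ly6c2 and Klrd1, which encodes a chain of the NK receptor CD94, are known from antigen-experienced CD8+ T cells. At 72 h the highest coefficients were 0.24 for Pglyrp1 with DCs and 0.12 for Gzma with MDSCs, both low in sparse values.

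At 0 h, 199 of the 2952 cells, or 6.74% (5.86 to 7.71), had 10 or more adjusted counts of Ccl5, and the upper 10% of cells held 97.6% of all its counts. The highest cell had 600. Against the 2269 cells without Ccl5, 17 of 24 memory-like genes tested were 2-fold or more higher in these 199 cells and 1, Dapl1, was lower, beside 5.27% higher over 5579 genes. Ly6c2 was at 826 CPM in the 199 cells and 48.3 in the cells without Ccl5. Cxcr3, the receptor that draws effector and memory T cells to interferon-induced chemokines, was at 91.7 and 6.48 CPM. Il2rb, the beta chain of the IL-2 and IL-15 receptors, was at 127 and 34.8 CPM, and Klrk1, which encodes NKG2D, at 285 and 0.72. Of 7 chemokine receptor genes tested, 5 were higher, among them Ccr2, Cxcr3, Cxcr6 and Cx3cr1, and Ccr9 was lower. Xcl1 at 0 h lay in cells with Ccl5 too: 44 of its 47 holders, or 93.6%, held Ccl5, which 23.1% of all cells did. The median number of genes found was 2314 in the 199 cells and 2213 in the cells without Ccl5.

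Markers of other cell types were also higher in the 199 cells. All of these cells held Cd8a and Cd8b1. The 4 NK cell genes summed to 248 CPM in them and 1.42 in cells without Ccl5, and 40.7% and 1.06% of these cells held at least 1 of them. Fcer1g, a signalling chain of activating receptors, was at 120 CPM in the 199 cells, and Klrb1c, which encodes NK1.1, at 21.8. Any of the 17 myeloid markers was held by 11.6% and 3.48%, and Ccl5 was at 2612 CPM in the 123 cells of the library with such a marker and at 675 in the others. The marker held most often was Ms4a6c, in 17 of the 199 cells, whereas the 5 granulocyte genes were at 0. Without cells that held a myeloid or NK cell marker, 107 cells with 10 or more adjusted counts of Ccl5 were left. In them 15 of 23 memory-like genes were higher, beside 3.85% of all 5580 genes tested.

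Few cells had 10 or more adjusted counts of Ccl5 in culture, and more of the memory-like genes tested were higher than lower in them. At 24 h with DCs there were 29, with 15 of 21 memory-like genes higher and none lower, beside 6.24% of all 6970 genes higher. With MDSCs there were 33, with 14 of 22 higher and none lower, beside 5.57% of 6982. At 72 h with DCs 10 of 23 were higher in 28 cells and 1 lower, beside 3.65% of 6764. With MDSCs 14 of 23 were higher and 3 lower in 11 cells, beside 12.1% of 6958. A gene was tested at 10 CPM or more in either set. In the 11 cells, S100a8 in 1 cell alone gave 6.19 CPM, so few counts could pass a gene as higher. The share over all genes carries the same limit. S100a6 was at 299 CPM in the 29 cells with DCs at 24 h and 4.58 in cells without Ccl5, and at 251 and 8.06 with MDSCs. Gzma, encoding granzyme A, was at 1271 and 1.70 CPM with DCs and at 1022 and 6.76 with MDSCs. At 24 h other cells' markers moved with this set too. The NK cell genes summed to 237 CPM in the 29 cells and 1.12 in cells without Ccl5 with DCs, and to 182 and 2.84 with MDSCs. The 6 DC genes summed to 244 and 33.9 CPM with DCs, and to 70.5 and 69.6 with MDSCs. Ccl17 and Ccl22, chemokine genes of DCs, were at 41.8 and 90.5 CPM in the 29 cells, held by 2 of them each, and at 0.21 in cells without Ccl5. With MDSCs, Ccl22 was at 10.4 CPM in the 33 cells and 0.36 in cells without Ccl5. Without cells holding a myeloid marker, 14 of 21 memory-like genes were higher in 15 cells with DCs, beside 8.63% of all genes tested. With MDSCs 14 of 21 were higher in 22 cells, beside 6.6%. Leaving out cells with an NK cell marker as well left 7 and 9 cells, with 6 of 16 and 10 of 18 higher. The shares over all genes tested were then 9.7% and 10.1%. At 72 h the same step left 16 cells with DCs, with 9 of 22 higher, beside 5.46% of all genes tested. With MDSCs 1 cell was left, with 6 of 18 higher and 6 lower, beside 23.5% higher over all genes tested. Cells with 10 or more adjusted counts of Ccl5 had fewer genes found at 24 h than cells without it. The medians were 2594 against 3570 with DCs and 2833 against 3612 with MDSCs. The part of that difference in the levels was not tested.

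Few chemokine receptor genes were abundant in the T cells. Of 23 chemokine receptor genes listed, 16 were in the table, and at most 5 reached 10 CPM in any comparison between libraries. Ccr1, the receptor of Ccl9, was at 0.03 to 0.14 CPM in all libraries. From 0 h to 24 h with DCs, Ccr9 and Cxcr6 fell among 4 receptors tested, beside 10.6% of all genes. At 24 h, neither of the 2 receptors tested passed 2-fold between cultures. At 72 h, 4 of 5 tested were lower with MDSCs, beside 5.52% of all genes: Ccr9 at 18.0 and 2.03 CPM without and with, Cxcr6 at 16.5 and 2.03, Cxcr4 at 14.9 and 2.44, and Ccr7 at 278 and 114. The list's median log2 ratio was -2.61, beside -0.07 over all genes tested.

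Of 37 chemokine ligand genes listed, 15 were in the table, and besides the 5 only Ccl1 and Cxcl10 reached 10 CPM. Cxcl10, encoding an interferon-induced ligand of Cxcr3, stood at 0.75 CPM at 0 h. It was at 19.8 (DCs) and 22.1 (DCs and MDSCs) at 24 h, then 0.24 and 0.73 at 72 h. Ccl1, which encodes a ligand of Ccr8, was at 12.96 and 8.61 CPM at 24 h in 1.54% and 1.34% of cells, and at 0 or 0.01 in the other libraries. Both followed the course of Ccl3, Ccl4 and Xcl1 over time. Within the 24 h library with DCs, Ccl1 was at 36.8 CPM in cells with all 3 of Ccl3, Ccl4 and Xcl1 and 0.26 in cells with none. Neighbours on chromosome 11 that reached 10 CPM changed far less. Taf15, which lies beyond Ccl5, was at 32.6 CPM at 0 h, 42.1 and 50.6 at 24 h, and 32.6 and 34.1 at 72 h. Heatr6, beyond Ccl4, was at 10.7 CPM at 0 h, 27.3 and 29.4 at 24 h, and 18.9 and 21.7 at 72 h. Both were thus highest at 24 h, and Heatr6 passed 2-fold from 0 h to 24 h, as 40.9% of all genes did. Ccl6, between Ccl9 and Ccl3, was at 0 to 0.35 CPM. Wfdc18, between Ccl4 and Heatr6, was at 0.02 CPM at 0 h, 0.29 and 0.38 at 24 h, and 0 at 72 h. Heatr9, between Taf15 and Ccl5, was at 0.27 CPM at 0 h and 0 to 0.03 in the other libraries. Such low levels were not compared.

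Most effector cytokine genes rose by 24 h and fell by 72 h. Of 8 tested from 0 h to 24 h with DCs, 7 rose and 1 fell, beside 40.9% and 10.6% of all genes, with a median log2 ratio of 3.98 beside 0.74. From 24 h to 72 h with DCs, 7 of 8 fell and 1 rose, beside 20.8% and 15.5%. With MDSCs 5 of 7 fell and 2 rose, beside 24.7% and 10.7%. Ltb, encoding lymphotoxin beta, ran the other way, at 773 CPM at 0 h, 121 and 109 at 24 h, and 566 and 269 at 72 h. Tnfsf8, encoding the CD30 ligand, was at 6.79 CPM at 24 h and 28.6 at 72 h with MDSCs, and at 26.6 and 7.92 without. Il2 was at 5.88 CPM at 0 h, 715 and 356 at 24 h and 8.98 and 5.08 at 72 h. At 24 h Il2 was 2.01-fold lower and Ifng 2.31-fold higher with MDSCs, while none of the 5 chemokines passed 2-fold. Cytotoxic granule genes did not share the course: of 8 tested from 24 h to 72 h with DCs, 3 rose and none fell, beside 15.5% and 20.8% of all genes, and Gzmb was at 1118 CPM at 24 h and 1796 at 72 h.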

How the data were processed

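Droplet libraries of sorted OT-I CD8+ T cells (10x Genomics, per the labels' protocols) were processed by the authors with Cell Ranger 2.0.1 and Seurat on mm10, per the submitters' processing notes. The roles of these tools are not given in the sources used here. The deposited values are natural log values, ln(1 + a whole number), in 3 tables (all time points, 24 h, 72 h). Back-transformed, 0 of them missed a whole number by more than 1e-06. These whole numbers are not molecule counts, since their total per cell had a coefficient of variation of 4.95% over 13629 cells.

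Adjusted counts, exp(value) - 1, were added up for each gene over the cells of a library, using the all-time-points table, and divided by the library total (Python 3.11.15, numpy 2.4.6, scipy 1.17.1, matplotlib 3.10.9). Libraries were taken from the deposited cell annotation. A ratio of 2 or more was called where the higher level was at least 10 CPM, in 5 comparisons with 1 library per group, and no test was run. The rule was tried on data simulated with counting error only. That trial leaves out the spread between cultures and between cells, so it says nothing on either. Intervals on shares are exact (Clopper-Pearson, 95%) and cover counting error only. Cells could not be thinned to equal molecule numbers, and doublets were not treated. Co-occurrence is the share of cells above 0 for both genes over the product of the separate shares. The 5 genes most alike to a gene were ranked by Pearson correlation among genes above 0 in 5% or more of a library's cells, leaving out the 5 chemokine genes. Named genes were the 5 chemokine genes, these alike genes, and members of 6 gene lists and 7 marker lists. Igtp, the neighbouring genes on chromosome 11 and the lowest correlations were chosen after their values were seen. Some genes of the lists are not reported here. The chemokine genes and the lists were chosen with earlier results of these data known. Alternatives covered weighting, centring, the total, the mean natural log value, the minimum level, the fold, the table used and cells with myeloid markers.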

Additional observations from a re-analysis of the deposited data

Results flagged for a closer look

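In CPM, the level of Ccl4 with MDSCs over that without had a log2 ratio of -0.12 at 24 h and 2.00 at 72 h. The mean natural log value gave 0.16 at 24 h, so the direction at 24 h is not fixed. The difference between the times was not tested. At 72 h Ccl4 was under 10 CPM in both cultures and rested on 29 and 298 adjusted counts, held by 18 of 1926 and 141 of 4942 cells. Of the cells with MDSCs at 72 h, 10 had 5 or more adjusted counts of Ccl4. All 10 held Cd8a and Cd8b1, 0 held S100a8 or Lyz2, 5 held Ccl3 and 5 held Nr4a1, an early gene of T cell receptor signalling that 5.05% of the other cells held.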

How the results depend on the processing

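No ratio called past 2-fold changed sign under any alternative. The number of chemokine genes past 2-fold was within 1.5 times of the reported one in 54 of 57 alternatives. With a minimum of 200 CPM it was 3 in place of 5 for 72 h against 24 h with MDSCs, and 0 in place of 1 between the 72 h cultures. With no minimum it was 4 between the 72 h cultures, of which 3 were higher and 1, Ccl5, was lower with MDSCs. Of the ratios of single genes, 17 moved and 111 did not, and the largest move of a called one was that of Ccl5 from 0 h to 24 h. The co-occurrence ratio of Ccl3 and Ccl4 was 1.27 with DCs and 1.15 with MDSCs. Counting a cell only at 2 or more adjusted counts gave 1.69 and 1.45, and the table of 24 h alone gave 1.08 with MDSCs. Without cells that held a myeloid or NK cell marker, fewer memory-like genes were higher in cells with 10 or more adjusted counts of Ccl5. They numbered 6 in place of 15 at 24 h with DCs, and 6 in place of 14 at 72 h with MDSCs. Only 1 such cell was left in the latter. Without cells holding these markers, the share of all genes higher was 9.7% in place of 6.24%, and 23.5% in place of 12.1%. The alternatives without cells that held S100a8, S100a9 or Lyz2, or these markers, were chosen after seeing the data. Depth per cell is unknown, and 1 library per group leaves the spread between cultures unmeasured, so low shares at 72 h are described and not ranked.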

Other observations

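At 0 h the genes most alike to Ccl4 outside the 5 chemokine genes were not those of 24 h. Serpine2 (0.69), Cish (0.68), 1500009L16Rik (0.59), Gzmb (0.54) and Zbtb32 (0.52) had the highest Pearson correlations over the 2952 cells, whereas Il2 led at 24 h. Cish encodes a cytokine-induced inhibitor of signalling. Ccl4 was above 0 in 210 of these cells, with the value 1 in 151 of them, and its correlation with the number of genes found was 0.39. The part of that number, and of the low spread of values in the 0 h library, in these coefficients was not tested.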
